A study of Homo sapiens with 9 samples.

Results

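The respiratory chain genes of U937-Cas9 cells were examined as 2 sets, one encoded by mitochondrial DNA and one by the nucleus. Members were the protein-coding genes of the count table whose GENCODE 29 symbol begins with MT-ND, MT-CO, MT-ATP or MT-CYB, with NDUFA, NDUFB, NDUFC, NDUFS or NDUFV and a digit, with UQCR, with COX4 to COX8 or with ATP5, or is SDHA, SDHB, SDHC or SDHD. They numbered 103 of 20265 genes, 13 of them mitochondrially encoded and 90 nuclear encoded. By complex, the mitochondrial set held 7 members of complex I, 1 of complex III, 3 of complex IV and 2 of complex V. The nuclear set held 37 of complex I, 4 of complex II, 9 of complex III, 19 of complex IV (NDUFA4 and NDUFA4L2 included) and 21 of complex V (the ATP synthase inhibitor ATP5IF1 and the factor ATP5S included). The symbol rule does not take NDUFAB1, CYC1 or CYCS.

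The cells were U937, an established monocytic line of human origin, here with the Cas9 nuclease. RNA-seq libraries came from IRF2KO cells that carry pIRF2 (IRF2KO_pIRF2), from IRF2KO cells, in which the transcription factor gene IRF2 was targeted, and from WT cells, with 3 libraries in each group. The labels leave unsaid the content of pIRF2, how the locus was edited, whether a line is 1 clone, and whether replicates were separate cultures, so p-values measure only the spread between these libraries, which may be technical. IRF2 itself was at 15.2, 18.1 and 18.4 CPM (counts on the scale of a shared library total, with TMM factors) in libraries labelled IRF2KO_pIRF2, at 23.5, 25.9 and 25.5 CPM in IRF2KO and at 37.1, 39.1 and 44.1 CPM in WT. It was lower in IRF2KO than in WT by edgeR's quasi-likelihood test (log2 fold change -0.68 ± 0.13 SE, adjusted p = 0.0433), and lower in libraries labelled IRF2KO_pIRF2 than in WT (-1.22 ± 0.13, adjusted p = 0.00295). IRF2 was thus not raised in the libraries labelled pIRF2, and that label is used here only as a name. Library totals ran from 14824907 to 23108288 counts. Of 14 monocytic markers 12 exceeded 1 CPM (LYZ averaged 596.5 CPM), with MPO and CSF1R below it, while CD3D, MS4A1 and HBB were at 0 in all 9 libraries. The summed monocytic markers ran from 5539 to 5775 CPM in IRF2KO_pIRF2, from 5957 to 9669 CPM in IRF2KO and from 4667 to 7285 CPM in WT, and their part in the results was not tested. On the first principal component, which held 56.4% of the variance, IRF2KO replicate 2 (-52.3) and WT replicate 1 (36.1) stood at opposite ends.

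Complexes I to IV pass electrons from NADH and succinate to oxygen and, except for complex II, pump protons across the inner mitochondrial membrane, and complex V uses the proton gradient to make ATP. The mitochondrial genome encodes core subunits of every complex but II, transcribed as long polycistronic RNAs that are cut into shorter ones. All other subunits are made from nuclear genes and imported. NRF1, GABP and YY1 are nuclear transcription factors known to act at many of their promoters.

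The mitochondrial genes lie close together, and in places overlap, which limits how their reads can be assigned. In the GENCODE 29 transcripts (GRCh38), MT-ATP8 and MT-ATP6, both subunits of the membrane part of ATP synthase, share 46 bases, which are 22.2% of MT-ATP8 and 6.75% of MT-ATP6. MT-ND4L and MT-ND4, both membrane subunits of complex I, share 7 bases. The sequences below are shown because a read that reaches the capitals overlaps both genes. They give the plus strand 5′ to 3′, with the shared bases in capitals and 20 bases of the first gene before and of the second gene after them.
MT-ATP8 and MT-ATP6, chrM:8507-8592: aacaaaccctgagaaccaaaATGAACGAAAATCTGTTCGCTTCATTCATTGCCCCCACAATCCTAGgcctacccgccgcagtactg
MT-ND4L and MT-ND4, chrM:10740-10786: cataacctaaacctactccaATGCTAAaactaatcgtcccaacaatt
In both, the capitals open with the start codon of the downstream gene and close with the stop codon of the upstream gene. MT-ATP6 also overlaps MT-CO3, over 0.13% of MT-CO3. How reads on both genes of a pair were counted is not given in the sources used here. Any read that reaches shared bases is affected, so the uncertain part extends beyond them, above all in the short MT-ATP8 and MT-ND4L. A difference within a pair is thus a difference of counts by gene, and need not be one between separate RNAs.

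For the nuclear members, RefSeq promoter windows (GRCh38.p14, 250 bases before to 50 after a start) were found for 70 of 90 genes, in 83 windows. The NRF1 core (GCGCATGC, either strand) was in 18.1% of these windows, against 3.05% of all 35116 windows. The ETS and GABP site (CCGGAAGT) was in 14.5%, against 4.14%, the YY1 site (AANATGGC) in 33.7%, against 6.58%, and the interferon regulatory factor core (AANNGAAA) in 21.7%, against 22.8%. The NRF1 core reads GCATGCGC on the other strand, so that GCGCATGCGC holds it on both. These matches describe letters, not bound sites. The windows below show one match each in members whose levels are described further on, in the direction of the gene, with the motif letters in capitals.
SDHB, NRF1 core, chr1:17054214-17054243, minus strand: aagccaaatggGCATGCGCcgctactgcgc
NDUFA5, NRF1 core, chr7:123557958-123557987, minus strand: gtatgcccatcGCGCATGCgtcaatttttc
UQCRH, ETS and GABP site, chr1:46303640-46303669, plus strand: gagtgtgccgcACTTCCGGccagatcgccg
COX8A, YY1 site, chr11:63974606-63974635, plus strand: cggccagcgcaGCCATTTTggcttcctgac
UQCRC1, YY1 site, chr3:48609605-48609634, minus strand: actgcagctggAAGATGGCggcgtccgtgg
COX8A and UQCRC1 thus hold the YY1 letters on opposite strands of the gene. Counted from the start, they begin at -3 in COX8A and at 23 in UQCRC1. A match after the start lies in transcribed sequence, and the shares above count such matches too.

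The 13 mitochondrially encoded genes took a large and uneven part of each library. Their share of all counts was 17.3%, 17.3% and 18.0% in IRF2KO_pIRF2, 12.2%, 18.8% and 18.0% in IRF2KO and 12.7%, 12.9% and 17.1% in WT. The IRF2KO_pIRF2 libraries were close to each other, while IRF2KO replicate 1 lay with WT replicates 1 and 2, and WT replicate 3 lay near the higher libraries. The 90 nuclear encoded genes together took 1.28%, 1.32% and 1.28% in IRF2KO_pIRF2, 1.45%, 1.14% and 1.28% in IRF2KO and 1.45%, 1.41% and 1.27% in WT. The ratio of mitochondrial to nuclear counts was therefore lowest in IRF2KO replicate 1 (8.38) and highest in IRF2KO replicate 2 (16.5), 2 libraries of 1 group. In these bulk libraries less mitochondrial RNA per cell and fewer cells rich in it cannot be told apart.

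**Figure D1:**
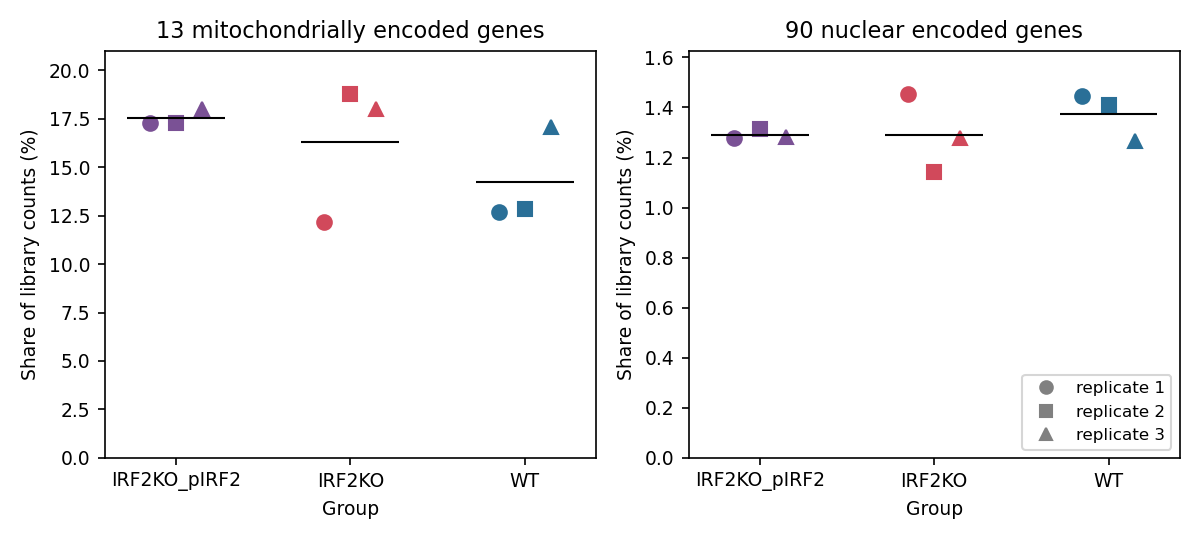
Share of library counts (%, axes from 0) taken by the 13 mitochondrially encoded genes (left) and the 90 nuclear encoded genes (right), with 1 point per library and a line at the group mean. The mitochondrial share of IRF2KO libraries spans 12.2% to 18.8%, and the groups overlap in both panels.

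Levels of the mitochondrially encoded genes are given per length, as CPM per kb of exon, over the 9 libraries. Among the cytochrome c oxidase core subunits, MT-CO3 averaged 44536 ± 6449 CPM per kb (SD, n = 9 libraries), MT-CO1 26808 ± 6268 and MT-CO2 17304 ± 1652. MT-CO3 stood above the other genes in mean, with a range of 34430 to 53731 against 16712 to 32120 for MT-CO1, so that these 2 did not overlap. Among complex I subunits, MT-ND4L (24438 ± 6515) and MT-ND4 (24303 ± 5031) were each below MT-CO1 in 8 of 9 libraries, and MT-ND4L was above MT-ND4 in 4 of 9. Both exceeded MT-CO2 in mean, MT-ND4 in 9 of 9 libraries and MT-ND4L in 8 of 9. The ATP synthase subunits MT-ATP6 (14029 ± 1986) and MT-ATP8 (9060 ± 2386) followed. MT-ND1 (6357 ± 1066), MT-ND3 (5477 ± 472.2) and MT-ND2 (4591 ± 812.9) came next. Their ranges over the libraries overlapped, but within a library MT-ND1 was above MT-ND2 in 9 of 9 and above MT-ND3 in 7 of 9, and MT-ND3 was above MT-ND2 in 9 of 9. MT-CYB, the only complex III subunit of mitochondrial DNA, averaged 2743 ± 471.6 CPM per kb and MT-ND5 2615 ± 724.1, with MT-CYB above MT-ND5 in 4 of 9 libraries. MT-ND6, the only one of the 13 on the minus strand, averaged 7.19 ± 0.988 CPM per kb, with 89 counts in IRF2KO_pIRF2 replicate 1 and 78 in IRF2KO replicate 1. Whether counting used strand is not given in the sources used here.

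**Figure D2:**
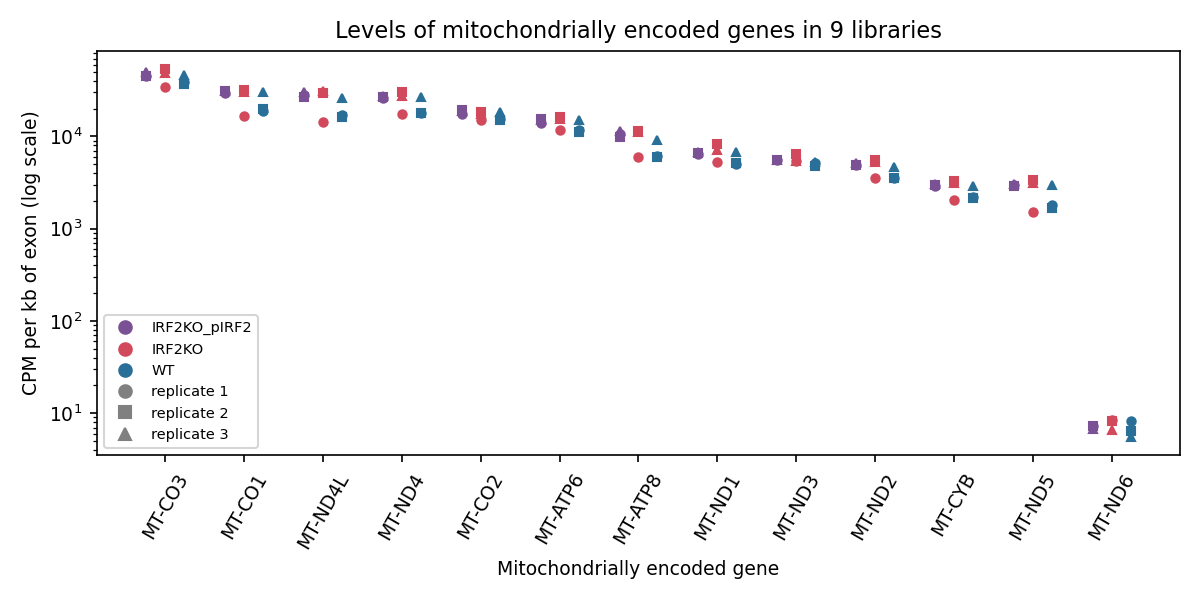
CPM per kb of exon (log axis) of each mitochondrially encoded gene in the 9 libraries, coloured by group, shaped by replicate and ordered by mean. MT-CO3 is highest and MT-ND6 lowest, and IRF2KO replicate 1 and WT replicates 1 and 2 lie at the low end for most genes.

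No mitochondrially encoded gene passed the test between any pair of groups. MT-CO1 was at 46103, 47765 and 48120 CPM in IRF2KO_pIRF2, at 25770, 49529 and 47287 CPM in IRF2KO and at 29314, 30781 and 47368 CPM in WT. The groups overlap, through IRF2KO replicate 1 and WT replicate 3. MT-ATP8 was at 2189, 2031 and 2349 CPM in IRF2KO_pIRF2, at 1240, 2369 and 2295 CPM in IRF2KO and at 1261, 1242 and 1902 CPM in WT. Its IRF2KO_pIRF2 libraries were all above its WT libraries, and its log2 fold change between them was 0.58 ± 0.23 (SE; edgeR adjusted p = 1). MT-ND6 was at 3.82, 3.82 and 3.53 CPM in IRF2KO_pIRF2, at 4.42, 4.35 and 3.44 CPM in IRF2KO and at 4.33, 3.33 and 2.93 CPM in WT, with overlap throughout.

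Between IRF2KO and WT, 0 of 13 mitochondrially encoded genes were called by edgeR (adjusted p under 0.05), against 0.417% of all 11517 tested genes. An unadjusted p under 0.05 was found for 0 of 13, against 18.7% of all tested genes. DESeq2 and limma-voom also called 0. The unadjusted count was 10 of 13 without IRF2KO replicate 1 and 8 without WT replicate 3, with 0 called in both. Leaving out any other single library gave an unadjusted count of 0. All 13 were higher in IRF2KO, as were 5588 of 11517 tested genes. Their median log2 fold change was 0.23 (all tested genes, -0.01), from 0.06 for MT-CO2 to 0.42 ± 0.23 for MT-ATP8. For 1 of 13 (MT-ND3) the libraries of the groups did not overlap, against 17.2% of all tested genes. The median was 0.05 without WT replicate 1 and IRF2KO replicate 2. It was 0.46 with each library's trend on GC content of the longest transcript and exonic length removed. That trend was fitted on nuclear genes only and then applied to these 13. Between IRF2KO_pIRF2 and WT, 0 of 13 were called, against 0.0781% of all genes, and 1 had an unadjusted p under 0.05, against 3.92%. This unadjusted count was 7 with only the 2 groups compared in the fit, 9 without WT replicate 3 and 0 without WT replicate 1 or 2. The shares of all tested genes under such settings are not given here. All 13 were higher in IRF2KO_pIRF2, as were 5422 of 11517 tested genes, with a median of 0.32 (all tested genes, -0.01). For 5 (MT-CYB, MT-ND2, MT-ND3, MT-ND4L and MT-ATP8) the libraries did not overlap, against 11.6% of all tested genes. Between IRF2KO_pIRF2 and IRF2KO, 0 were called, against 0.365% of all genes, with 0 at an unadjusted p under 0.05, against 11.2%. Here 10 were higher and 3 lower in IRF2KO_pIRF2, where 5785 of 11517 tested genes were higher. The median of the 13 was 0.08 (all tested genes, 0.0016), and -0.12 with the GC and length trends removed. The libraries of no gene were without overlap, against 22.6% of all genes. The 3 comparisons share libraries and are not independent. The 13 genes, transcribed as shared polycistronic RNAs, are not independent of each other either.

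**Figure D3:**
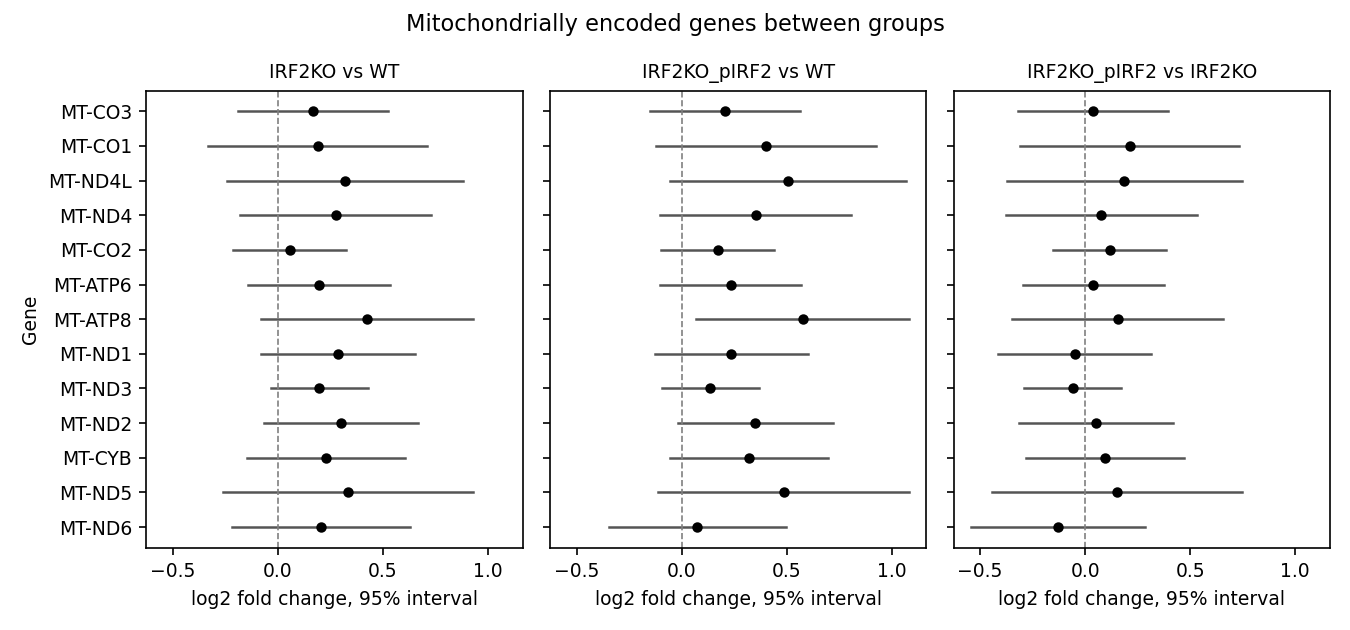
Log2 fold change of each mitochondrially encoded gene in the 3 comparisons, first-named group over second, with its 95% interval from edgeR. Every point lies above 0 against WT, and the interval of MT-ATP8 in IRF2KO_pIRF2 against WT, 0.07 to 1.08, is the only one that does not include 0.

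The genes also shifted relative to each other from library to library. The ratio of MT-CO1 to MT-CO2 counts was 3.89, 3.63 and 3.73 in IRF2KO_pIRF2, 2.52, 3.91 and 3.91 in IRF2KO and 2.75, 2.96 and 3.77 in WT. The ratio of MT-ND5 to MT-ND3 counts was 2.85, 2.73 and 2.88 in IRF2KO_pIRF2, 1.47, 2.73 and 3.06 in IRF2KO and 1.85, 1.84 and 2.92 in WT. In both ratios the lowest values were those of IRF2KO replicate 1 and WT replicates 1 and 2, the libraries with the 3 lowest mitochondrial shares. Within groups, the median SD of log2 levels was 0.05 in IRF2KO_pIRF2, 0.35 in IRF2KO and 0.25 in WT for the 13 genes, beside 0.09, 0.24 and 0.19 for all tested genes.

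Of the 90 nuclear encoded members, 82 passed the filter on low counts. COX6A2, COX7A1 and COX7B2, tissue-specific forms of complex IV subunits, had 0 counts in all 9 libraries, as did the readthrough genes NDUFC2-KCTD14 and ATP5MF-PTCD1. For the 3 complex IV genes, a count of 0 allows up to 3 counts, which is 0.130 to 0.202 CPM of a library. Other genes on the same strand cover 100% of the exons of NDUFC2-KCTD14 and 88.3% of those of ATP5MF-PTCD1, so that reads from them may have been counted elsewhere or dropped and their 0 sets no limit. COX4I2, ATP5MGL and NDUFA7 were not tested either. Another gene on the same strand covers 32.3% of the exons of NDUFA7, which had 2 counts in all. Its reads, too, may have been counted elsewhere or dropped, so its low count is uncertain. Per length of exon, the highest member within complex I was NDUFS5 (301.2 CPM per kb, mean of 9 libraries), within complex II the iron-sulfur subunit SDHB (92.5), within complex III UQCRH (517.2), within complex IV COX5A (524.6) and within complex V the catalytic beta subunit ATP5F1B (297.5). The order depends on the length used. Over 1 principal transcript per gene, a length taken up after these levels had been seen, NDUFB9 (706.5) led complex I and ATP5ME (484.8) complex V, and the leaders of the other 3 complexes stayed. The highest mitochondrial member, MT-CO3, was far above all of these on this scale.

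Paralogs were expressed unequally. COX4I1 ran from 249.5 to 332.6 CPM over the 9 libraries and COX4I2 from 0.0430 to 0.227. COX6A1 ran from 79.2 to 107.3 CPM with COX6A2 at 0. COX6B1, a complex IV subunit at the dimer interface, ran from 172.5 to 250.4 CPM and COX6B2 from 0.360 to 1.06. COX7A2 ran from 21.6 to 64.8 CPM with COX7A1 at 0, and COX7B from 190.5 to 453.3 CPM with COX7B2 at 0. In GENCODE 29 another gene on the same strand covers 34.5% of the exons of COX8A and 30.9% of those of COX6B2, so their counts are uncertain to that extent. COX8C was at 36.9 to 49.3 CPM beside 119.4 to 278.7 for COX8A. NDUFA4 ran from 167.3 to 362.6 CPM and NDUFA4L2 from 4.44 to 10.2. UQCRH ran from 490.2 to 918.7 CPM, and UQCRHL, a near-identical copy whose reads the counting could split, from 1.76 to 3.52. The ATP synthase c-subunit genes, which encode the same mature protein, ran from 87.6 to 134.7 CPM for ATP5MC1, from 300.952 to 392.9 for ATP5MC2 and from 305.4 to 451.0 for ATP5MC3.

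No nuclear member passed the test in any comparison. Between IRF2KO and WT, 0 of 82 were called, beside 0.417% of all genes, and 10 had an unadjusted p under 0.05, 5 higher and 5 lower (DESeq2 called 0, with 12 unadjusted, and limma-voom 0, with 9). The median log2 fold change was -0.16, with 27 members higher and 55 lower in IRF2KO. It was 0.06 without WT replicate 1 and IRF2KO replicate 2, and -0.01 without IRF2KO replicate 2 alone. With the mitochondrial share as a covariate it was 0.0034, and with GC and length trends removed -0.06. For 9 of 82 the libraries did not overlap, against 17.2% of all tested genes, and 18.7% of all tested genes had an unadjusted p under 0.05. Between IRF2KO_pIRF2 and WT, 0 of 82 were called, against 0.0781% of all tested genes, and 1 had an unadjusted p under 0.05, against 3.92%. The libraries of 2 did not overlap, against 11.6%, and the median was -0.09. Between IRF2KO_pIRF2 and IRF2KO, 0 were called, against 0.365% of all tested genes, and 5 had an unadjusted p under 0.05, all lower in IRF2KO_pIRF2, against 11.2%. The libraries of 11 did not overlap, against 22.6%, and the median was 0.04.

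By complex, medians between IRF2KO and WT were -0.09 for 35 tested members of complex I, -0.21 for 4 of complex II, -0.17 for 9 of complex III, -0.01 for 15 of complex IV and -0.17 for 19 of complex V. All 4 complex II genes were lower in IRF2KO, as were 5928 of 11517 tested genes. The libraries of SDHB and SDHA did not overlap, against 17.2% of all tested genes. SDHB was at 229.8, 245.8 and 228.6 CPM in IRF2KO_pIRF2, at 220.1, 176.3 and 231.0 CPM in IRF2KO and at 242.6, 234.4 and 241.6 CPM in WT. Its lowest library was IRF2KO replicate 2, and its difference between IRF2KO and WT did not pass the test (-0.20 ± 0.11, edgeR adjusted p = 0.307).

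**Figure D4:**
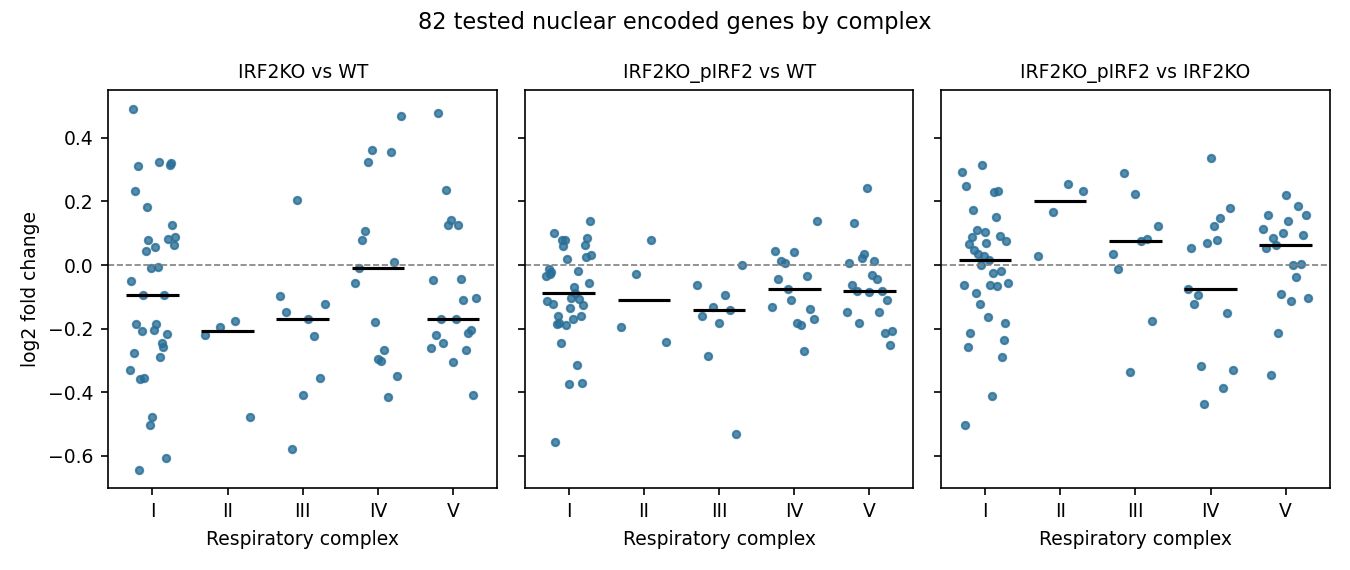
Log2 fold change (first-named group over second) of the 82 tested nuclear encoded genes by respiratory complex in the 3 comparisons, with 1 point per gene and a line at the median of each complex. The medians run from -0.21 for complex II between IRF2KO and WT to 0.20 for complex II between IRF2KO_pIRF2 and IRF2KO.

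The members with the smallest p, named after their values were seen where no rule named them, belonged to several complexes. UQCRC2, a core subunit of complex III, was at 195.8, 232.5 and 205.8 CPM in IRF2KO_pIRF2, at 199.8, 146.9 and 196.1 CPM in IRF2KO and at 266.1, 230.1 and 223.6 CPM in WT. IRF2KO lay below WT without overlap (-0.41 ± 0.14, edgeR adjusted p = 0.256). UQCRC1, its partner core subunit, was at 261.3, 261.2 and 250.4 CPM in IRF2KO_pIRF2 and at 336.4, 352.0 and 287.7 CPM in IRF2KO, and was lower in IRF2KO_pIRF2 without overlap (-0.34 ± 0.11, edgeR adjusted p = 0.440).

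COX6B1 was at 190.2, 172.5 and 193.8 CPM in IRF2KO_pIRF2, at 240.3, 250.4 and 201.9 CPM in IRF2KO and at 178.7, 192.5 and 182.3 CPM in WT. IRF2KO was above both other groups without overlap, yet neither difference passed (0.32 ± 0.11 against WT, edgeR adjusted p = 0.256, and -0.32 ± 0.11 for IRF2KO_pIRF2 against IRF2KO, adjusted p = 0.440). NDUFA11, an accessory subunit of complex I, was at 45.7, 49.1 and 43.2 CPM in IRF2KO_pIRF2, at 58.9, 85.2 and 51.6 CPM in IRF2KO and at 35.5, 49.3 and 54.4 CPM in WT. It had the highest fold change of the nuclear set between IRF2KO and WT (0.49 ± 0.20, edgeR adjusted p = 0.256), where the groups overlap. NDUFA5, another accessory subunit, had the lowest (-0.64 ± 0.37, edgeR adjusted p = 0.306). It was at 15.76, 15.02 and 15.87 CPM in IRF2KO_pIRF2, at 20.6, 7.39 and 16.0 CPM in IRF2KO and at 34.4, 22.0 and 12.2 CPM in WT. Its highest library was WT replicate 1 and its lowest IRF2KO replicate 2.

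Further nuclear members stood at the ends of the fold changes. Between IRF2KO and WT, UQCRB of complex III (-0.58 ± 0.27, edgeR adjusted p = 0.272) and NDUFB3 of complex I (-0.50 ± 0.28, edgeR adjusted p = 0.298) were at the low end. UQCRB was at 45.6, 49.7 and 47.6 CPM in IRF2KO_pIRF2, at 50.9, 23.7 and 42.2 CPM in IRF2KO and at 80.2, 54.3 and 39.9 CPM in WT. ATP5F1D, the delta subunit of the ATP synthase rotor, was at the high end (0.48 ± 0.20, edgeR adjusted p = 0.261). It was at 69.7, 65.8 and 70.0052 CPM in IRF2KO_pIRF2, at 70.7, 119.1 and 71.3 CPM in IRF2KO and at 52.1, 62.6 and 72.7 CPM in WT. IRF2KO replicate 2 was thus the lowest library for UQCRB and the highest for ATP5F1D. Between IRF2KO_pIRF2 and WT, ATP5MC3 was highest (0.24 ± 0.15, edgeR adjusted p = 1) and NDUFA5 lowest (-0.56 ± 0.37, edgeR adjusted p = 1). Between IRF2KO_pIRF2 and IRF2KO, COX7A2 of complex IV was highest (0.34 ± 0.29, edgeR adjusted p = 0.580) and NDUFA11 lowest (-0.50 ± 0.20, edgeR adjusted p = 0.440).

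IRF2KO replicate 2 and WT replicate 1 also set the extremes of the nuclear set as a whole, along GC content. Across the 82 members, the difference of IRF2KO replicate 2 from the mean of its 2 replicates correlated with the GC content of the longest transcript at r = 0.62, beside 0.77 over 11407 other tested genes. That of WT replicate 1 correlated at -0.59, beside -0.71. For IRF2KO_pIRF2 replicate 1, taken as a library that does not stand apart, r was 0.06. These are descriptions over genes that share libraries. Of the 27 members of lowest GC (35.04% to 44.1%), 26 were lower in IRF2KO replicate 2 than the mean of the other 2 IRF2KO libraries. The median difference of the 27 was -0.70 on the log2 scale. In WT replicate 1, 23 of the 27 were above the mean of the other 2 WT libraries, and the median difference was 0.42. Between IRF2KO and WT, 24 of these 27 were lower in IRF2KO (median -0.27), while of the 27 of highest GC (51.4% to 65.0%) 18 were higher (median 0.13). With the GC and length trends removed, 0 members were called in any comparison.

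**Figure D5:**
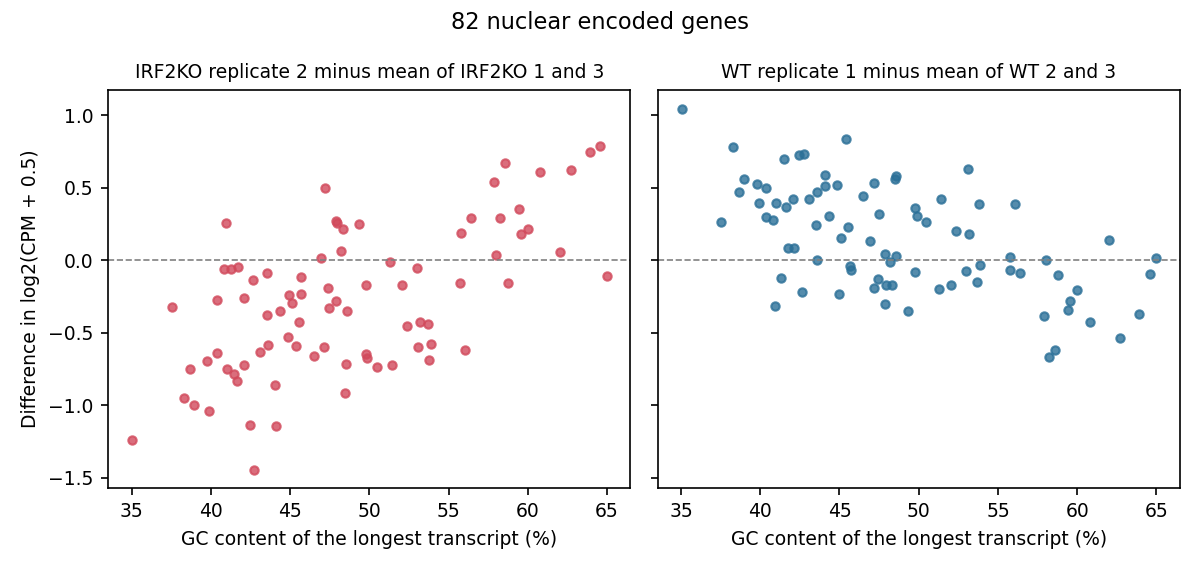
Difference in log2(CPM + 0.5) of IRF2KO replicate 2 (left) and of WT replicate 1 (right) from the mean of the other 2 libraries of its group, for each of the 82 tested nuclear encoded genes, against GC content (%) of the longest transcript. The points rise with GC on the left and fall on the right.

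Genes around the respiratory chain were read from 10 lists, chosen with earlier results of these data known: carriers and subunits outside the symbol rule, assembly factors of each complex, mitochondrial transcription and RNA processing, biogenesis regulators, the tricarboxylic acid cycle, protein import and the mitochondrial ribosome. They held 231 genes, 228 of them tested and 1 also a member. In edgeR, 0 rose and 0 fell in any comparison, where 0.417% (IRF2KO against WT), 0.0781% (IRF2KO_pIRF2 against WT) and 0.365% (IRF2KO_pIRF2 against IRF2KO) of all tested genes were called. An unadjusted p under 0.05 was found for 32 between IRF2KO and WT, 1 between IRF2KO_pIRF2 and WT and 19 between IRF2KO_pIRF2 and IRF2KO, where the shares of all tested genes were 18.7%, 3.92% and 11.2%. List medians of log2 fold change ran from -0.18 to 0.04 between IRF2KO and WT, from -0.13 to 0.03 between IRF2KO_pIRF2 and WT and from -0.12 to 0.10 between IRF2KO_pIRF2 and IRF2KO. The smallest p was that of MRPL12, a protein of the large mitochondrial ribosomal subunit, with a log2 fold change of 0.98 ± 0.20 between IRF2KO and WT (edgeR adjusted p = 0.087).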

How the data were processed

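A single deposited table held unnormalised read counts by gene, made by the authors. The hg38 build, HTSeq 0.9.1, TopHat2 2.1.1 and Bowtie2 2.3.3 are named, with bedtools and SAMtools, in the submitters' processing notes. No source used here states the gene annotation, whether counting used strand, or how shared reads were treated. Symbols and lengths came from GENCODE 29, which matched 20012 of 20265 identifiers. Counts were filtered with filterByExpr, scaled by TMM and tested with edgeR 4.0.16 (quasi-likelihood F-test, R 4.3.3) with all 9 libraries in 1 fit, Benjamini-Hochberg adjustment over 11517 genes and a threshold of 0.05. SE is the fold change over the root of F. The fit was tested on simulated data. The floor was 3 counts, and floors cover counting error only. Intervals are 95%.

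Named genes were the 13 mitochondrial members, called members, the 3 largest and 3 smallest fold changes of nuclear members averaging at least 5 CPM in each comparison, the highest nuclear member of each complex per length, and paralog sets. The members and lists were chosen with earlier results of these data known. Levels per length use the union of a gene's exons. After those levels had been seen, the length and GC content of 1 principal transcript were tried in their place. The exon union was kept, because it was the measure first set down, and the principal transcript stands as an added alternative. Other alternatives were DESeq2 1.42.0, limma-voom (limma 3.58.1), other scalings and filters, a replicate block, GC and length trends, the mitochondrial share as a term, and leaving out libraries.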

Additional observations from a re-analysis of the deposited data

How the results depend on the processing

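No member was called under any of 20 alternative settings, 19 of them planned, and the smallest adjusted p of a member was 0.106, without WT replicate 3. The setting that removes GC content and length trends by 1 principal transcript was chosen after seeing the data. Its trends, too, were fitted on nuclear genes, and it gave a median log2 fold change of 0.51 for mitochondrially encoded members between IRF2KO and WT. The nuclear median in that comparison was 0.059 without both libraries that stand apart and -0.013 without IRF2KO replicate 2. A covariate for the mitochondrial share of counts gave 0.0034 there, and 0.0579 between IRF2KO_pIRF2 and WT. The cause was not tested. Leaving out 1 library at a time gave nuclear medians from -0.25 to -0.01 between IRF2KO and WT, from -0.16 to -0.02 between IRF2KO_pIRF2 and WT and from -0.09 to 0.15 between IRF2KO_pIRF2 and IRF2KO. The mitochondrial medians ran from 0.11 to 0.44, from 0.24 to 0.47 and from -0.09 to 0.18 in the same order of comparisons. Correlations between groups of library deviations from the group mean ran from -0.43 to 0.61 for same-numbered libraries. For differently numbered ones they ran from -0.73 to 0.71. Deviations within a group depend on each other, so these values cannot show whether replicate numbers mark a pairing. With the replicate block 0 members were called, and 39, 7 and 36 of all genes were called in IRF2KO against WT, IRF2KO_pIRF2 against WT and IRF2KO_pIRF2 against IRF2KO, beside 48, 9 and 42 without it. With the block the mitochondrial medians were 0.22, 0.33 and 0.11 and the nuclear ones -0.16, -0.07 and 0.05. Of 2481 values of 42 named members, 187 had the other sign and 0 passed the threshold. Counts were low for COX6B2 (128 over the 9 libraries), UQCRHL (424), NDUFS4 (628) and MT-ND6 (657), the tested members with the fewest, which limits their precision.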
